A study of Homo sapiens with 32 samples.

Results

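Colorectal cancer is driven by a small set of genes, and 8 of them were examined here for uracil in their DNA: APC, CTNNB1, PIK3CA, TGFBR2, SMAD4, MYC, FBXW7 and TCF7L2. The rule took them by name, though they were chosen with earlier results of these data known, and each was taken as its GENCODE gene body with 20 kb added on both sides. All 8 were found among the 20015 protein-coding gene windows built in the same way. The measure was the covered share, the percentage of the known bases of a window that lay inside regions of uracil enrichment.

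The regions came from U-DNA-Seq, in which a catalytically inactive uracil-DNA glycosylase pulls down DNA fragments that hold uracil, and the fragments are sequenced next to their input DNA. HCT116, a human colon carcinoma cell line that lacks mismatch repair (MMR), gave 7 conditions with 2 biological replicates each. WT cells carried no transgene and received no drug, and all other HCT116 conditions came from cells stably transduced with UGI, a protein that blocks the main uracil-DNA glycosylase UNG, together with EGFP, and sorted for fluorescence. NT_UGI cells were left without drug. In 5FdUR_UGI the drug was the nucleoside 5-fluoro-2'-deoxyuridine (5FdUR) at 20 µM, and in RTX_UGI it was the antifolate raltitrexed (RTX) at 100 nM, given for 48 h in both. NT_UGI_MMR, 5FdUR_UGI_MMR and RTX_UGI_MMR were the same 3 treatments of an MMR proficient sub-line, which holds a transferred chromosome 3. K562, a chronic myelogenous leukemia line, was neither transduced nor treated and gave 1 library. No drug-treated library without UGI was analysed, so the effect of a drug on these genes was seen only where UNG was inhibited. Regions of DNA carry no marker expression, and the identity of the lines could not be checked from them.

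Uracil enters DNA mainly when dUTP is used in place of dTTP opposite adenine, and UNG normally removes it. Both drugs inhibit thymidylate synthase, the enzyme that makes dTMP from dUMP, and so raise the supply of dUTP relative to dTTP. 5FdUR can also be incorporated itself, as fluorouracil. The members belong to 4 linked systems: in WNT signalling, APC helps to destroy β-catenin, which CTNNB1 encodes and which acts on DNA through TCF7L2. MYC is a target of that pathway, and FBXW7 marks the MYC protein for destruction. TGFBR2 and SMAD4 carry the growth-restraining TGF-β signal, and PIK3CA is the catalytic subunit of the PI3K kinase. HCT116 itself is known to carry mutated CTNNB1, PIK3CA and TGFBR2.

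The log2 thresholds were tuned by the authors library by library, to reach about the same total length of regions in both replicates and the merged data within 1 condition. The 8 drug-treated libraries had 502 to 555 Mb of regions (17.1 to 18.9% of known bases) above thresholds of 0.13 to 0.27, and the 6 non-treated HCT116 libraries 321 to 331 Mb (10.9 to 11.3%) above 0.25 to 0.33. The K562 library had 323 Mb above 0.33. The depth of reads behind a region is not recorded, so the spread between libraries is the only error given.

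Over all gene windows, drug treatment was followed by more cover. The median window had a mean covered share of 0.406% without drug and 29.7% over the 8 drug-treated libraries pooled. Taken by drug, this median was 16.1% over the 5FdUR libraries and 36.6% over the RTX libraries. The median difference between drug-treated and non-treated was 28 percentage points. The 8 driver genes had a median difference of 6.11 points. Of the 19817 windows tested, 52.1% had a higher and 9.70% a lower covered share in the 8 drug-treated than in the 6 non-treated HCT116 libraries (two-sided exact permutation test, Benjamini-Hochberg adjusted p at most 0.05). Among the members 1, MYC, was called higher and 1, FBXW7, was called lower, and the remaining 6 did not pass. These counts depend on the thresholds: with only the highest regions up to 300 Mb kept in each library, 1850 windows were higher and 2567 lower, and with a log2 value of at least 0.34 asked of every library 1167 were higher and 2592 lower. FBXW7 was called lower in both (-20.7 and -21.1 points, adjusted p = 0.00353 and 0.00368, exact permutation tests). MYC was called higher in the first (58.1 points, adjusted p = 0.0379) and missed the call in the second (61 points, adjusted p = 0.0538, exact permutation tests). With 300 Mb per library SMAD4 and APC were also called lower, by -7.13 points (adjusted p = 0.00353) and -8.95 points (adjusted p = 0.0282, exact permutation tests).

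**Figure D1:**
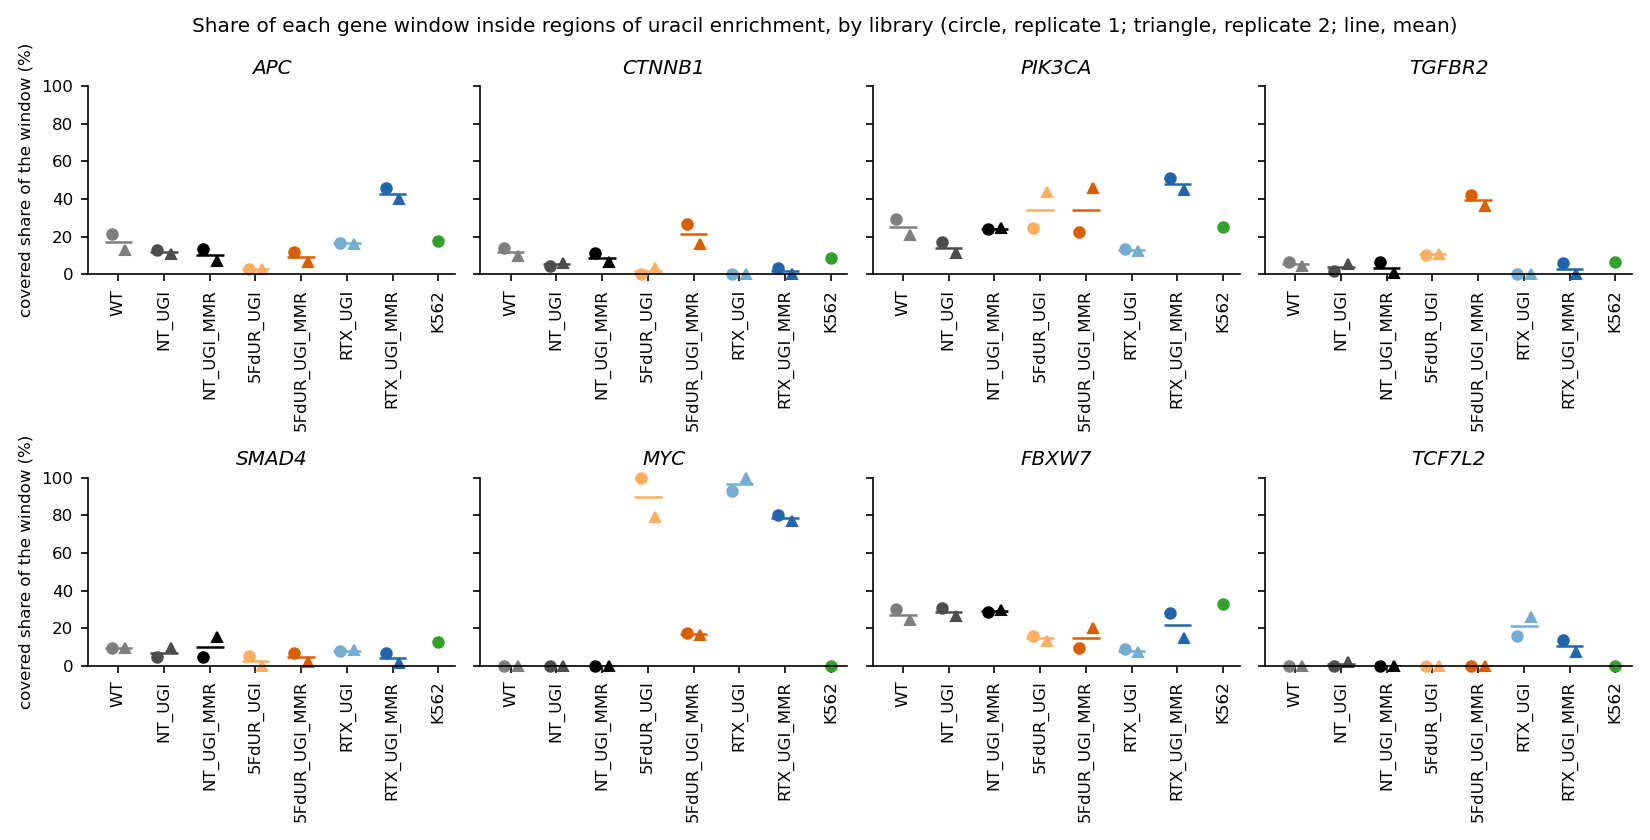
Covered share (%) of the window of each gene in every library, by condition; circles are replicate 1, triangles replicate 2 and lines the mean of a condition. MYC stood at 0% in all non-treated libraries and at 16.4 to 100% after drug, while FBXW7 fell from 24.1 to 30.9% without drug to 7.28 to 28.2% with it.

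APC encodes the scaffold of the complex that destroys β-catenin, and spans 139 kb on chromosome 5 (GRCh38 chr5:112707518-112846239, plus strand). Without drug its covered share was 21.3 and 13% in WT, 13.1 and 10.7% in NT_UGI, and 13.3 and 7.22% in NT_UGI_MMR. In 5FdUR_UGI it was 2.74 and 2.69%, and in 5FdUR_UGI_MMR 11.7 and 6.55%. In RTX_UGI it was 16.6 and 16.3%, and in RTX_UGI_MMR 45.6 and 40.1%. The highest 5FdUR library lay below the lowest RTX library, and the non-treated libraries lay between and across both. With both drugs pooled, the share was 17.8% ± 16.4 (SD, n = 8) against 13.1% ± 4.62 (SD, n = 6), a difference of 4.68 points that was not separable from the spread (two-sided exact permutation test, adjusted p = 0.541). The 2 RTX_UGI_MMR libraries shared 35 kb of the APC window, of which 9 kb lay in regions of no other HCT116 library. The longest run of those, 2.1 kb, lay 148 to 150 kb downstream of the gene start, past the gene end. The 300 bases at its centre are shown as an example of DNA near APC that was enriched in those 2 libraries alone, with the A and T bases, where uracil can stand for thymine on one strand or the other, in capitals. They hold 68% A or T.
APC downstream, chr5:112856601-112856900, plus strand: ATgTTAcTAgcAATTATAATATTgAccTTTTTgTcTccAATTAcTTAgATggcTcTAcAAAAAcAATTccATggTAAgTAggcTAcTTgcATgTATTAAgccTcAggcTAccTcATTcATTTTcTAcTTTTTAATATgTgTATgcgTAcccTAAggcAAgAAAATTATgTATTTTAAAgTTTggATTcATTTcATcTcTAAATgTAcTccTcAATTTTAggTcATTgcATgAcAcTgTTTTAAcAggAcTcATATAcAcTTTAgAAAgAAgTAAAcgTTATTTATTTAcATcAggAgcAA

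CTNNB1, the gene of β-catenin, lies on chromosome 3 (chr3:41194741-41260096, plus strand). Its covered share without drug was 13.9 and 9.49% in WT, 4.56 and 6.17% in NT_UGI, and 11.4 and 6.36% in NT_UGI_MMR. 5FdUR_UGI stood at 0 and 3.32%, and 5FdUR_UGI_MMR at 26.6 and 16.3%. RTX_UGI stood at 0 in both replicates, and RTX_UGI_MMR at 3.13 and 0%. All 6 non-treated libraries had cover, and 3 of 4 RTX libraries had none. The pooled drug-treated mean of 6.17% ± 9.93 (SD, n = 8) did not separate from 8.64% ± 3.56 (SD, n = 6) without drug (exact permutation test, adjusted p = 0.626). In all 6 non-treated libraries and in K562, but in no drug-treated library, 1.8 kb of an intron was covered.

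TCF7L2, the transcription factor through which β-catenin acts in the gut, is the longest of the 8 genes at 217 kb (chr10:112950247-113167678, plus strand). Of the 6 non-treated libraries 5 had no cover, and NT_UGI replicate 2 had 1.86%. In all 4 5FdUR libraries the covered share was 0%. In RTX_UGI it was 16 and 26%, and in RTX_UGI_MMR 13.6 and 7.11%. Regions of uracil enrichment were thus found in every RTX library and no 5FdUR library. The surroundings were not empty after 5FdUR: with 1 Mb on both sides, the covered share was 23.3 to 31.1% in the 4 5FdUR libraries, 36 to 49.5% in the 4 RTX libraries and 4.45 to 5.38% without drug.

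MYC encodes a transcription factor that drives cell growth, and is the shortest of the 8 genes (7.52 kb, chr8:127735434-127742951, plus strand), so that most of its window is flank. The window held no region in any of the 6 non-treated HCT116 libraries or in K562. Such an absence was common, since 41.4% of all gene windows had no cover in any of those 6 libraries. In 5FdUR_UGI 100 and 79.2% of it was covered, and in 5FdUR_UGI_MMR 17.4 and 16.4%. RTX_UGI stood at 92.8 and 100%, and RTX_UGI_MMR at 80.2 and 76.9%. Every drug-treated library lay above every non-treated one, in 8 of 8 against 6 of 6 libraries. The share of all windows that separated in this way was not computed. The mean rose to 70.4% ± 34.2 (SD, n = 8) from 0% (n = 6), a difference of 70.4 points (two-sided exact permutation test, adjusted p = 0.00464). Of all windows, 96.3% had a lower difference.

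In 5FdUR_UGI replicate 1 the whole MYC window lay inside a single region of 186300 bp, and in RTX_UGI replicate 2 inside one of 184600 bp. The mean log2 value over covered bases was 0.611 and 0.309 in 5FdUR_UGI, 0.232 and 0.204 in 5FdUR_UGI_MMR, 0.551 and 0.539 in RTX_UGI, and 0.424 and 0.4 in RTX_UGI_MMR. The MMR proficient libraries lay below the deficient ones with either drug, on both measures. The gene start itself lay in a region in 3 of 4 5FdUR libraries and 2 of 4 RTX libraries. Neither replicate of RTX_UGI_MMR covered the gene start.

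FBXW7, the substrate-binding subunit of the SCF ubiquitin ligase that targets MYC, spans 216 kb (chr4:152320544-152536092, minus strand). It was the most covered member without drug, with 30.2 and 24.1% in WT, 30.9 and 26.4% in NT_UGI, and 28.5 and 29.9% in NT_UGI_MMR. In 5FdUR_UGI the covered share was 15.8 and 13.4%, and in 5FdUR_UGI_MMR 9.74 and 20.1%. In RTX_UGI it was 9 and 7.28%, and in RTX_UGI_MMR 28.2 and 14.9%. Of the 8 drug-treated libraries 7 lay below every non-treated library, and RTX_UGI_MMR replicate 1 lay among them. The mean fell to 14.8% ± 6.84 (SD, n = 8) from 28.4% ± 2.61 (SD, n = 6), by 13.5 points (two-sided exact permutation test, adjusted p = 0.00928). With 1 Mb on both sides the order turned: the covered share was 20.4 to 34.3% with drug and 5.56 to 6.87% without. With flanks of 100 kb in place of 20 kb, the difference was +13.4 points (exact permutation test, adjusted p = 0.0203). In all 6 non-treated libraries 15.1 kb of the window was covered, and 11.1 kb of this lay in no drug-treated library. The longest run, 5.2 kb of intron between 163 and 169 kb from the gene start, was also covered in K562. Its central 300 bases, shown as DNA that was enriched in all 7 non-treated libraries and in no drug-treated one, hold 70.3% A or T and 1 CpG.
FBXW7 intron, chr4:152369951-152370250, plus strand: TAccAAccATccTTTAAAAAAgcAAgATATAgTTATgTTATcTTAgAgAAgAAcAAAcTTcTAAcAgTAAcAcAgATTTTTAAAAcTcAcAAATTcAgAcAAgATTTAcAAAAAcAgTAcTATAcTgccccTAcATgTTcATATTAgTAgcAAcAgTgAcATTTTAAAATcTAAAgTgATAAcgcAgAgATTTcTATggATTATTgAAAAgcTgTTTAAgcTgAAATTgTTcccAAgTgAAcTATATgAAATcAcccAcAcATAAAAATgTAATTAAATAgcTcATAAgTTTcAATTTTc

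TGFBR2, the type II TGF-β receptor, also lies on chromosome 3 (chr3:30606601-30694142, plus strand). Without drug the covered share was 6.59 and 4.27% in WT, 1.96 and 5.76% in NT_UGI, and 6.51 and 0.47% in NT_UGI_MMR. In 5FdUR_UGI it was 10.3 and 10.9%, and in 5FdUR_UGI_MMR 42.3 and 36.3%. RTX_UGI stood at 0 and 0.157%, and RTX_UGI_MMR at 6.04 and 0%. All 4 5FdUR libraries lay above all RTX and all non-treated libraries. The share of all windows with this order was not computed. Pooled, the drug-treated mean of 13.3% ± 16.8 (SD, n = 8) was not separable from 4.26% ± 2.54 (SD, n = 6), with adjusted p = 0.332 (exact permutation test). The exons were 0% covered in every non-treated and every RTX library, and 5.18 to 73.8% in the 4 5FdUR libraries. The 2 5FdUR_UGI_MMR libraries shared 25 kb of the window, and 16.1 kb of this lay in no other HCT116 library. The longest run, 5.3 kb, lay 77.5 to 82.8 kb from the gene start, and both libraries also covered the start. The central 300 bases of that run, with 63.7% A or T, and the 250 bases before the RefSeq start site, with 41.6% A or T and 12 CpG, are shown as 2 kinds of DNA that 5FdUR_UGI_MMR enriched in 1 gene.
TGFBR2 intron, chr3:30686601-30686900, plus strand: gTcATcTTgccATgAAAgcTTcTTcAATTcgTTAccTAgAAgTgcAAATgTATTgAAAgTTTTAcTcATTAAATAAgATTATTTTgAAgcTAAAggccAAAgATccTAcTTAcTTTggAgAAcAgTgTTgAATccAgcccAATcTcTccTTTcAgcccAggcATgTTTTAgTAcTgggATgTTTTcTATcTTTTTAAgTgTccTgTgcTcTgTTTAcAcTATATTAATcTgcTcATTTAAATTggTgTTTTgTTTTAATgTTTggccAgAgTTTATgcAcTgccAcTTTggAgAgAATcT
TGFBR2 promoter, chr3:30606351-30606600, plus strand: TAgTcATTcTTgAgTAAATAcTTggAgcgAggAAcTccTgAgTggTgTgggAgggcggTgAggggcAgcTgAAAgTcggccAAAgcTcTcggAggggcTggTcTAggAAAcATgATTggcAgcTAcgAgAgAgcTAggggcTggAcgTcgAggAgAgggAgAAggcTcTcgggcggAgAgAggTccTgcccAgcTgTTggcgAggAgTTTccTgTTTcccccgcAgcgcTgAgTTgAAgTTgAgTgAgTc

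SMAD4, the partner through which receptor-activated SMAD proteins enter transcription, lies on chromosome 18 (chr18:51028528-51085045, plus strand). The covered share without drug was 9.43 and 9.53% in WT, 4.77 and 9.22% in NT_UGI, and 4.87 and 15.1% in NT_UGI_MMR. 5FdUR_UGI stood at 4.97 and 0%, and 5FdUR_UGI_MMR at 6.94 and 2.28%. In RTX_UGI it was 7.77 and 8.39%, and in RTX_UGI_MMR 7.05 and 1.76%. The classes overlapped over the whole window. The drug-treated mean was 4.9% ± 3.16 (SD, n = 8) and the non-treated mean 8.82% ± 3.82 (SD, n = 6), a difference of -3.93 points that missed the threshold (two-sided exact permutation test, adjusted p = 0.0785).

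PIK3CA, the kinase subunit p110α, is the third member on chromosome 3 (chr3:179148114-179240093, plus strand). Without drug the covered share was 29.5 and 20.9% in WT, 17.1 and 11.1% in NT_UGI, and 24 and 24.6% in NT_UGI_MMR. In 5FdUR_UGI it was 24.8 and 43.6%, and in 5FdUR_UGI_MMR 22.3 and 45.7%. RTX_UGI stood at 13.5 and 12.4%, and RTX_UGI_MMR at 50.9 and 44.6%. Both RTX_UGI libraries lay near the low end of the non-treated range, and both RTX_UGI_MMR libraries above it. The pooled means were 32.2% ± 15.6 (SD, n = 8) with drug and 21.2% ± 6.42 (SD, n = 6) without, which did not separate (exact permutation test, adjusted p = 0.161).

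**Figure D2:**
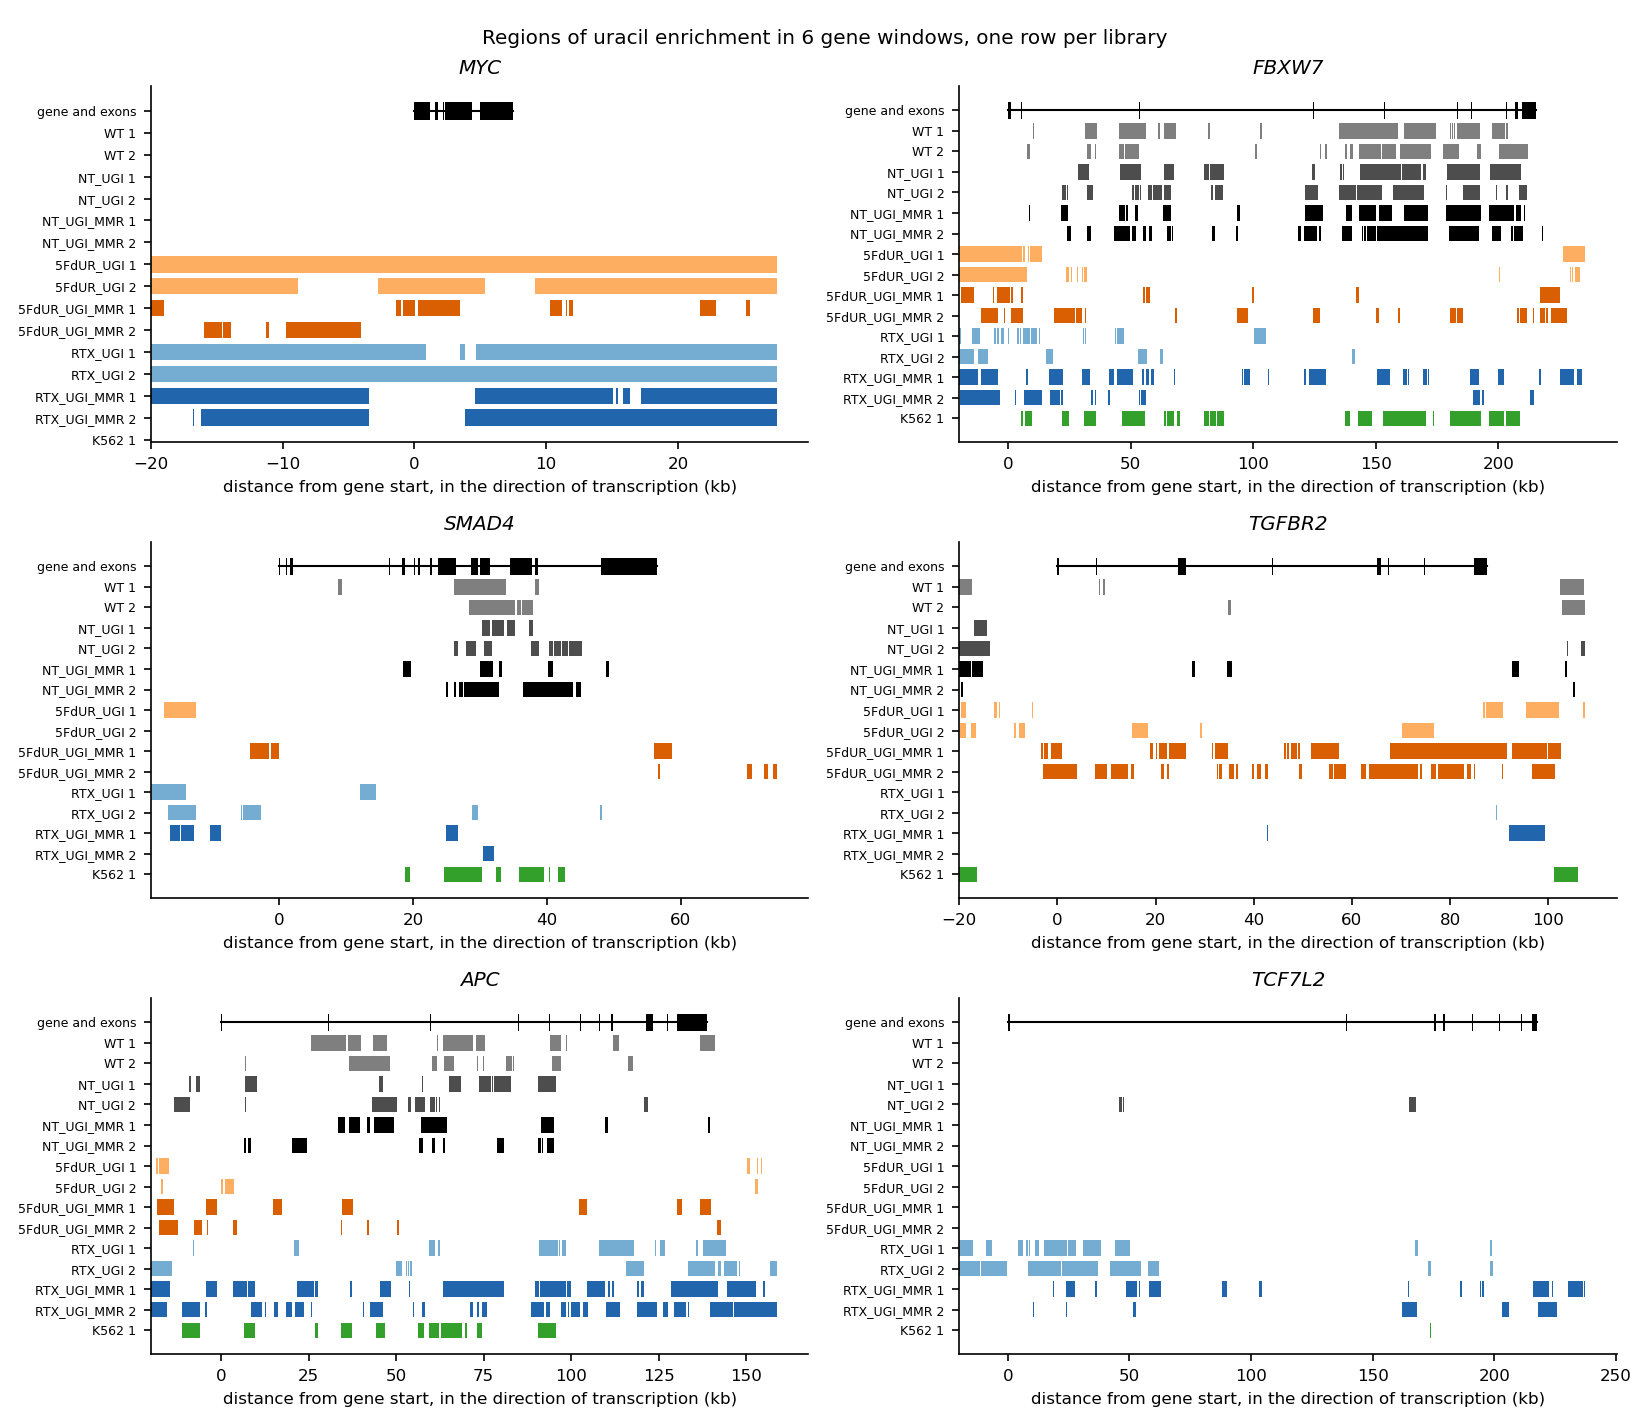
Regions of uracil enrichment in the windows of 6 genes by library, along the distance from the gene start in kb; the top row shows the gene as a line and its exons as boxes. In FBXW7 and SMAD4 the non-treated libraries and K562 covered the interior of the gene. The share of the flanks was above that of the body in 8 of 8 drug-treated libraries for FBXW7 and 6 of 8 for SMAD4, and in 0 of 6 non-treated libraries for both.

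The position of the regions within the windows differed between the classes. Gene body and flanks were also taken apart, and the comparisons of the flanks alone and of flanks minus body were added after the maps were seen. FBXW7 and SMAD4 lost cover in the body and gained it in the flanks. In FBXW7 the body was covered to 28.6, 34.5 and 36.7% (lowest, median and highest of the 6 non-treated libraries) and to 3.2, 6.45 and 22.7% in the 8 drug-treated ones. Its flanks were covered to 0, 0 and 1% without drug, and to 16.5, 43.8 and 72.6% with drug. The body fell by 24.3 points (adjusted p = 0.0043) and the flanks rose by 44.4 points (adjusted p = 0.00553), and neither pair of ranges overlapped (exact permutation tests). How often the ranges of other genes lie apart, in body or flanks, was not computed.

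In SMAD4 the body was covered to 8.14, 15.9 and 25.8% without drug and to 0, 1.7 and 4.07% with drug. The flanks were at 0% in all 6 non-treated libraries, and at 0, 12.2 and 17% (lowest, median and highest) in the 8 drug-treated libraries. The body fell by 13.4 points (exact permutation test, adjusted p = 0.0043), with no overlap of the libraries. The share of other gene bodies without such overlap was not computed. The flanks rose by 9.4 points (adjusted p = 0.028, exact permutation tests). Of 19263 windows in which both parts could be tested, 88, or 0.457%, had the body called lower and the flanks called higher. FBXW7 and SMAD4 were among them, 2 of the 8 members. Since this pattern was looked for after their maps were seen, the count describes it and cannot test it.

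Over all genes, the body alone was called higher in 34.9% and lower in 8.68% of those tested, and the flanks alone higher in 52.4% and lower in 6.83%. Of the members, MYC was called higher in the body, with a difference of 57.2 points (exact permutation test, adjusted p = 0.0162). CTNNB1, SMAD4 and FBXW7 were called lower there. For CTNNB1 the body fell by 9.54 points, from 13.7% ± 5.71 (SD, n = 6) to 4.15% ± 6.16 (SD, n = 8; exact permutation test, adjusted p = 0.0386). APC, PIK3CA, SMAD4, MYC and FBXW7 were called higher in the flanks, 5 of 8, and none was called lower. The comparison of the flanks alone was added after the maps were seen, so these flank calls only describe the maps. For PIK3CA the flanks rose by 40.9 points (adjusted p = 0.0131) beside a body difference of -2.01 points (adjusted p = 0.846, exact permutation tests).

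The flank share minus the body share was then compared within libraries, after the maps of the same libraries had been seen. It was called higher with drug in 7.37% and lower in 2.68% of windows. It rose in APC, CTNNB1, SMAD4 and FBXW7, 4 of the 8 members. The calls among the members therefore describe the maps and cannot test them. The rise was 27.6 points in APC (adjusted p = 0.0237), 18.6 in CTNNB1 (0.00801), 22.8 in SMAD4 (0.00801) and 68.7 in FBXW7 (0.00801; exact permutation tests). Leaving out single libraries, SMAD4 and FBXW7 were called in all 14 fits, CTNNB1 in 13 and APC in 9. The CTNNB1 call was lost without WT replicate 1 (exact permutation test, adjusted p = 0.0655), and that of APC without any 1 of 5 non-treated libraries (adjusted p = 0.0518 to 0.053). The body and flanks also differed in base composition: the GC content was 35.4% in the body and 42% in the flanks of FBXW7, 37.9 and 41.5% for SMAD4, 39.9 and 42% for CTNNB1, and 37.6 and 39.8% for APC. It was 35.8 and 39.9% for PIK3CA and 44.6% in both for TCF7L2, where the flank share minus the body share moved by 42.9 points (adjusted p = 0.0602) and 8.76 points (adjusted p = 0.327, exact permutation tests). The body was richer in GC than the flanks in MYC (51.5 and 44.7%) and TGFBR2 (40.8 and 37.7%), where it moved by 15.7 points (adjusted p = 0.465) and -8.93 points (adjusted p = 0.532, exact permutation tests). The part of base composition in these differences was not tested.

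**Figure D3:**
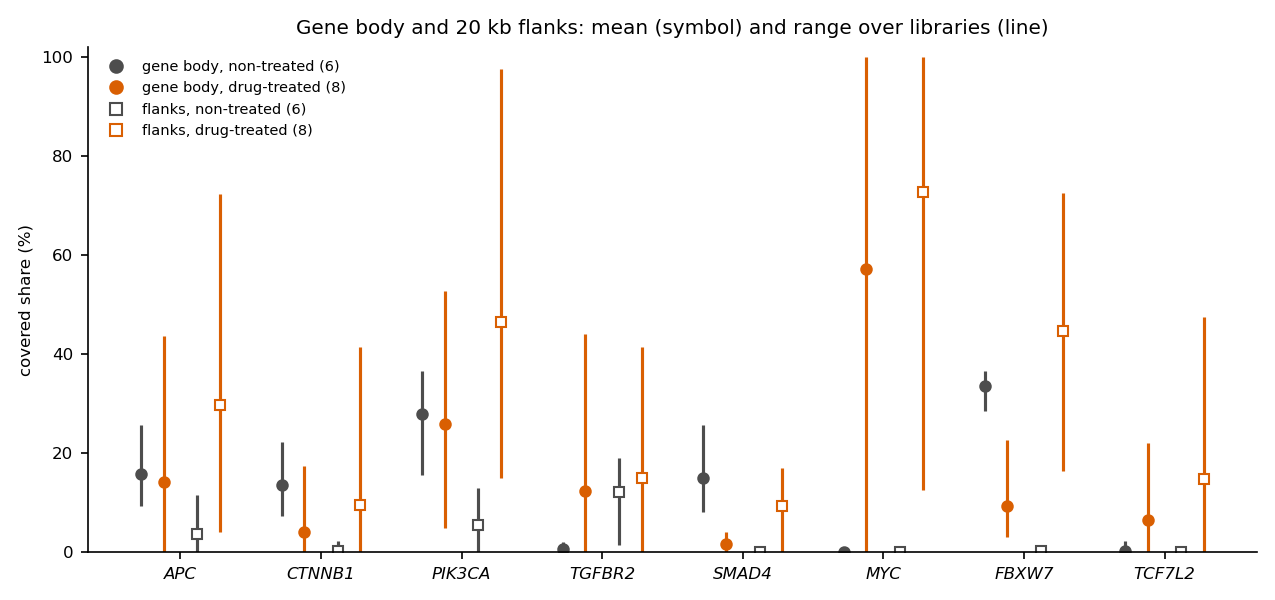
Covered share (%) of the gene body and of the 20 kb flanks of each gene; symbols are means and lines the range over 6 non-treated (grey) or 8 drug-treated (orange) libraries. In FBXW7 the body ranges, 28.6 to 36.7% and 3.2 to 22.7%, and the flank ranges, 0 to 1% and 16.5 to 72.6%, lay apart in opposite order.

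The bases enriched with and without drug were compared in the members covered in both classes. In FBXW7 79.4 kb, or 31.1% of the window, was covered in at least 3 of the 6 non-treated libraries and 22.6 kb in at least 4 of the 8 drug-treated ones, and the sets shared 0 kb. APC (15.6 and 8.7 kb), SMAD4 (7.8 and 2.2 kb) and TGFBR2 (5.8 and 2.7 kb) also shared none, but their sets without drug made up only 8.73, 8.08 and 4.55% of the windows, and a shared length of 0 kb says little for sets this small. PIK3CA had 4.4 kb shared, which was 13.3% of each set. These sets depend on the number of libraries asked for, and single drug-treated libraries did reach bases covered without drug. In FBXW7, of the 15.1 kb covered in all 6 non-treated libraries, only 11.1 kb lay outside every drug-treated library. The overlap over all windows was not computed. Replicates of a condition agreed on position only in part. The Jaccard index, shared bases over bases in either library, was 0.28 to 0.498 for the WT pairs of the 6 members with cover. Over all 3 non-treated conditions it ran from 0 (TCF7L2 in NT_UGI, covered in 1 replicate) and 0.0349 (TGFBR2 in NT_UGI_MMR) to 0.573 (FBXW7 in NT_UGI_MMR). For drug-treated pairs it ran from 0 (5FdUR_UGI_MMR in MYC, with 17.4 and 16.4% covered) to 0.928 (RTX_UGI in MYC). Covered shares of replicates can thus be alike where the positions are not.

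The 2 drugs were compared directly, with 4 libraries each over both MMR states. With 70 possible assignments the smallest p is 0.0286 and the smallest adjusted p reached was 0.0719, so the exact permutation test called 0 of 19693 windows. It gave 7827 windows an unadjusted p at most 0.05, and limma on the arcsine square root of the share called 10208. Every RTX library lay above every 5FdUR library in 28.9% of windows, and the reverse held in 10.8%. Among the members APC and TCF7L2 had RTX above 5FdUR, and TGFBR2 had 5FdUR above RTX. The mean was 29.6% ± 15.4 with RTX against 5.92% ± 4.25 with 5FdUR in APC, and 15.7% ± 7.86 against 0% in TCF7L2 (SD, n = 4 each; exact permutation test, p = 0.0286 each, adjusted p = 0.0719). In TGFBR2 it was 25% ± 16.8 with 5FdUR against 1.55% ± 2.99 with RTX (SD, n = 4 each; exact permutation test, p = 0.0286, adjusted p = 0.0719). With limma the adjusted p was 0.0277 for APC, 0.00479 for TCF7L2 and 0.015 for TGFBR2. MYC, at 53.2% ± 42.8 with 5FdUR and 87.5% ± 10.8 with RTX (SD, n = 4 each), did not separate (exact permutation test, p = 0.286). Labels were not exchanged within an MMR state here, so these SDs hold differences between MMR states as well as between replicates. For MYC with 5FdUR, the values were 100 and 79.2% in 5FdUR_UGI and 17.4 and 16.4% in 5FdUR_UGI_MMR. The drugs were not tested within an MMR state.

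Each drug was also set against the 6 non-treated libraries, which the 2 comparisons share. After 5FdUR 37.0% of windows were called higher and 8.88% lower, and after RTX 68.9% higher and 15.1% lower. MYC was higher after 5FdUR by 53.2 points (adjusted p = 0.0121) and after RTX by 87.5 points (adjusted p = 0.00641, exact permutation tests). FBXW7 was lower by 13.6 points after 5FdUR (adjusted p = 0.0121) and by 13.5 after RTX (adjusted p = 0.0181, exact permutation tests). TGFBR2 rose by 20.7 points after 5FdUR (adjusted p = 0.0121), beside -2.71 points after RTX (adjusted p = 0.13, exact permutation tests). After RTX, APC rose by 16.5 points (adjusted p = 0.0353), TCF7L2 rose by 15.4 (0.00641) and CTNNB1 fell by 7.85 (0.0181), where the values after 5FdUR were -7.19 (0.0763), -0.311 (1) and 2.92 points (0.649; exact permutation tests). PIK3CA and SMAD4 were called with neither drug.

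MMR proficient and deficient UGI-expressing cells were compared over 6 libraries each, with labels exchanged within a treatment. No window of 19813 was called by the exact permutation test (smallest adjusted p 0.199), 1428 had an unadjusted p at most 0.05, and limma called 0. A higher share in MMR proficient cells had an unadjusted p at most 0.05 in 3.66% of windows, and among the members in CTNNB1, at 10.6% ± 9.76 against 2.34% ± 2.72 (SD, n = 6 each; exact permutation test, p = 0.0278, adjusted p = 0.199). Chromosome 3, which the MMR proficient sub-line holds in an added copy, carries CTNNB1, TGFBR2 and PIK3CA, and the part of that copy in their values was not tested.

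Within a drug there are 2 libraries on each side, and only their order was counted, with no test. After 5FdUR both MMR proficient libraries lay above both deficient ones in 20.4% of windows and below in 45.4%. APC, CTNNB1 and TGFBR2 lay above, and MYC below. After RTX they lay above in 20.6% and below in 37.9% of windows. APC, PIK3CA and FBXW7 lay above, and SMAD4, MYC and TCF7L2 below. APC was above and MYC below with either drug. Without drug both NT_UGI_MMR libraries lay above both NT_UGI libraries in 13.4% of windows, among them CTNNB1 and PIK3CA. The widest gaps were those of MYC after 5FdUR (100 and 79.2% against 17.4 and 16.4%), PIK3CA after RTX (13.5 and 12.4% against 50.9 and 44.6%) and TGFBR2 after 5FdUR (10.3 and 10.9% against 42.3 and 36.3%).

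UGI without drug was described only, with no test, over 2 libraries of each condition. APC, TGFBR2 and FBXW7 overlapped between the conditions. CTNNB1 was at 13.9 and 9.49% in WT and 4.56 and 6.17% in NT_UGI, PIK3CA at 29.5 and 20.9% against 17.1 and 11.1%, and SMAD4 at 9.43 and 9.53% against 4.77 and 9.22%. The share of all windows with both WT libraries above both NT_UGI libraries was not computed. These orders are therefore not read as an effect of UGI. MYC held no region in either condition, so that UNG inhibition alone was not followed by regions there at these thresholds. It shared this with many genes, as 41.4% of all windows had no cover in any of the 6 non-treated libraries.

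K562 cells had covered shares near those of non-treated HCT116 cells at the driver genes. The K562 library had covered shares of 17.8% in APC, 8.73% in CTNNB1, 25.3% in PIK3CA, 12.5% in SMAD4, 0% in MYC and 0.0777% in TCF7L2, all inside the range of the 6 non-treated HCT116 libraries. TGFBR2, at 6.82%, and FBXW7, at 32.7%, lay just above it. The positions coincided as well. Of the K562 cover, 92.8% in APC, 100% in CTNNB1, 93.4% in PIK3CA, 85.1% in TGFBR2, 90.1% in SMAD4 and 95.8% in FBXW7 lay in a region of at least 1 non-treated HCT116 library, and those regions made up 45.5, 20.9, 48, 12, 22.1 and 51.6% of the windows. In TCF7L2 the 0.2 kb of K562 cover lay in none. As shares of that HCT116 cover, the shared bases were 36.4, 41.8, 49.3, 48.2, 51.2 and 60.7% in the same order. With 1 library, none of these values has a replicate check.

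Base composition was set beside the changes, since windows rich in GC gained more cover with drug. Over 19817 windows the Pearson correlation of GC content with the difference was 0.535, as a description across genes that share all libraries. The GC content of the window was below the median of 44.4% in 6 of the 8 members: 36.4% in FBXW7, 37% in PIK3CA, 38.1% in APC, 39.4% in SMAD4, 39.8% in TGFBR2 and 40.7% in CTNNB1. It was 44.6% in TCF7L2 and 45.8% in MYC. Compared with the mean of windows in the same class of 1% GC, FBXW7 lay 1.49 points above, APC 2.39 and TGFBR2 3.13 points below, all within 1 SD of their class (12.9 to 17.8 points). Also within 1 SD, PIK3CA lay 15 points above a class mean of -3.99 ± 15.5 (SD, 909 windows) and SMAD4 16.1 points below one of 12.1 ± 17.8 (SD, 1361 windows). Beyond 1 SD, MYC lay 34.2 points above a class mean of 36.1 ± 21.5 (SD, 909 windows). TCF7L2 lay 26.8 points below a class mean of 34.4 ± 21.6 (SD, 1077 windows) and CTNNB1 22.6 points below 20.1 ± 19.6 (SD, 1316 windows), both beyond 1 SD.

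**Figure D4:**
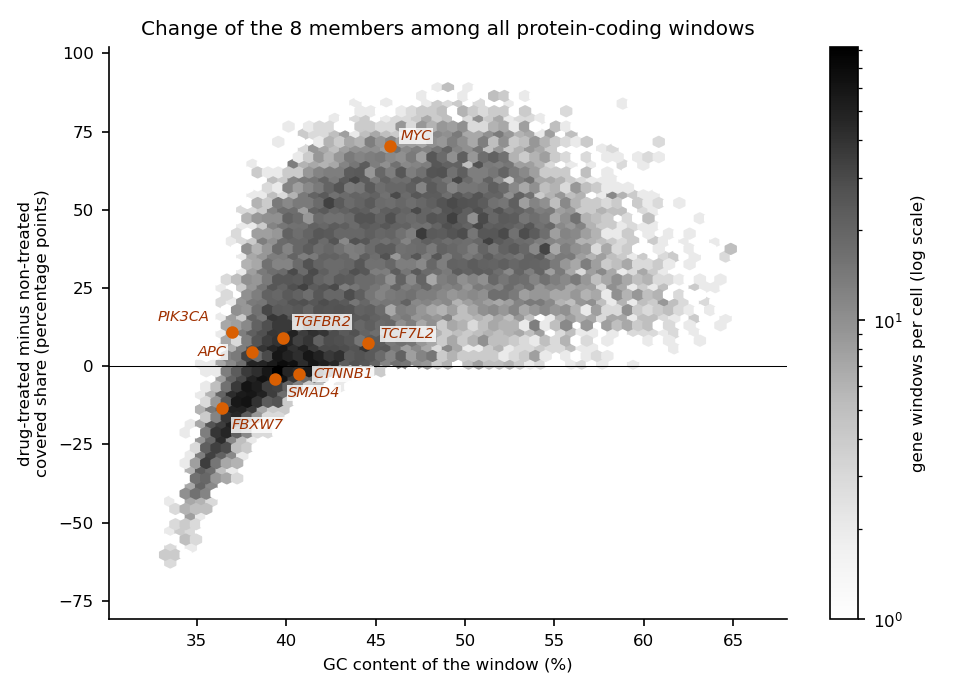
Difference of the mean covered share, drug-treated minus non-treated (percentage points), against the GC content of the window (%) for 19817 protein-coding windows, shaded by the number of windows on a log scale, with the 8 members in orange. FBXW7, at 36.4% GC and -13.5 points, and MYC, at 45.8% and 70.4 points, have the lowest and the highest difference among the members.

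**Figure D5:**
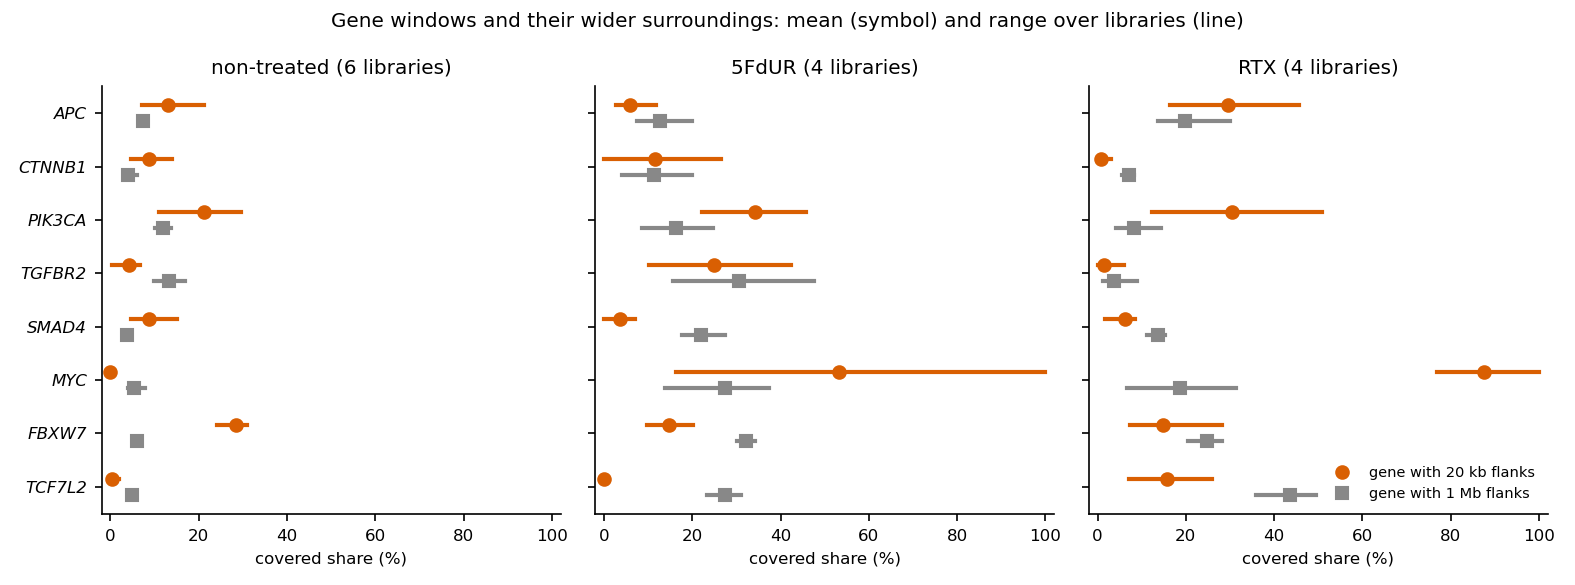
Covered share (%) of each gene with 20 kb flanks (orange circles) and with 1 Mb flanks (grey squares) in the non-treated, 5FdUR and RTX libraries; symbols are means and lines ranges over libraries. After 5FdUR the TCF7L2 window was at 0% inside surroundings at 23.3 to 31.1%, and after RTX the MYC window was at 76.9 to 100% inside surroundings at 6.74 to 31.3%.

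The wider surroundings set the members apart in another way. MYC stood above its surroundings after RTX, with 87.5% ± 10.8 of its window and 18.7% ± 11.9 of the DNA with 1 Mb flanks covered (SD, n = 4). After 5FdUR it did so in 5FdUR_UGI (100 and 79.2% against 27.2 and 13.9%), but in 5FdUR_UGI_MMR it stood below them (17.4 and 16.4% against 37.4 and 30.6%). SMAD4 stood below, with 3.55% ± 3.04 against 21.9% ± 4.92 after 5FdUR and 6.24% ± 3.04 against 13.6% ± 1.75 after RTX (SD, n = 4). PIK3CA stood above on the mean in every class, with 30.4% ± 20.3 against 8.34% ± 4.81 after RTX (SD, n = 4). After 5FdUR it was at 34.1% ± 12.2 against 16.4% ± 6.61 (SD, n = 4), and without drug at 21.2% ± 6.42 against 11.8% ± 1.41 (SD, n = 6). TCF7L2 and FBXW7 stood below on the mean with both drugs. TCF7L2 was at 15.7% ± 7.86 against 43.7% ± 6.13 after RTX, and FBXW7 at 14.8% ± 4.34 against 32.2% ± 2.05 after 5FdUR (SD, n = 4). How often other windows stand apart from their surroundings was not computed. Only 1 other protein-coding gene lies within 1 Mb of MYC, and 5 to 13 within 1 Mb of the other members.

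The log2 value of the covered bases can be compared only with the thresholds in mind. In FBXW7 the mean over covered bases was 0.369 to 0.489 in the non-treated and 0.193 to 0.504 in the drug-treated libraries. In MYC, the member with the highest value, it was 0.204 to 0.611. In the 5FdUR_UGI_MMR libraries, whose thresholds were 0.20 and 0.13, it was 0.147 to 0.338 over the 7 members that they covered. In the 6 of these that non-treated cells also covered, it was lower than in every non-treated library of the same gene. The non-treated libraries had thresholds of 0.25 to 0.33, and their values cannot fall below these. The thresholds alone favour this order, which is therefore not read as weaker enrichment.

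The partners of the members were counted in 5 lists of other genes. Of 27 further genes of WNT and β-catenin signalling, 16 were called higher and 1 lower with drug, with a median difference of 30.9 points. TCF7, a T-cell relative of TCF7L2, had the largest rise, from 0% in all 6 non-treated libraries to 66.5% ± 39.2 (SD, n = 8; range 0.777 to 96.9%; exact permutation test, adjusted p = 0.00603). RSPO2, a secreted WNT agonist, fell from 8.54% ± 2.26 (SD, n = 6) to 0.752% ± 1.84 (SD, n = 8; exact permutation tests, adjusted p = 0.00351). Of 23 genes of TGF-β, activin and BMP signalling 11 were called higher and 1 lower, with a median of 25.3 points. ACVR1B, an activin type I receptor, rose by 66.6 points (adjusted p = 0.0121), and ACVR2A, a type II receptor, fell by 19.1 (adjusted p = 0.00464, exact permutation tests).

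Of 25 genes of PI3K and RAS signalling 15 were called higher and 1 lower, with a median of 33.8 points. TSC1, a restraint on mTOR, rose by 61.7 points (exact permutation test, adjusted p = 0.00542). Of 20 genes of the MYC network and the SCF ligase 14 were called higher and 1 lower, with a median of 36.9 points. MYCL, a relative of MYC, rose by 62.9 points (adjusted p = 0.0267), with drug-treated libraries at 0 to 99.1%, and SKP2, another F-box protein, fell by 16.8 (adjusted p = 0.00351, exact permutation tests). Of 22 other genes often mutated in colorectal cancer 12 were called higher and 3 lower, with a median of 34.4 points. RNF43, a ubiquitin ligase that restrains WNT receptors, rose by 59.1 points (adjusted p = 0.0136), and EPHA3, an ephrin receptor, fell by 51.8, from 52.3% ± 5.02 (SD, n = 6) to 0.437% ± 0.812 (SD, n = 8; adjusted p = 0.00351, exact permutation tests). The share of all windows called was 52.1% higher and 9.70% lower, and the median of all windows 28 points.

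Over the 15 libraries, the gene on another chromosome whose covered share was most like that of MYC was PHF19 on chromosome 9 (Pearson r = 0.997), and for TCF7L2 it was HAPSTR1 on chromosome 16 (r = 0.993). For TGFBR2 it was EIF3F (r = 0.982), for CTNNB1 GBP1 (r = 0.977), for APC HEATR5B (r = 0.938), for PIK3CA N4BP2L1 (r = 0.925) and for FBXW7 KLRC4-KLRK1 (r = 0.921). SMAD4 had no window on another chromosome with r of 0.9 or more, the nearest being OR5B21 (r = 0.778). MYC had 3830 such windows, TCF7L2 1651, TGFBR2 891, APC 30, CTNNB1 17, FBXW7 8 and PIK3CA 2. These are descriptions over libraries that share drug classes.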

How the data were processed

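The libraries were sequenced by the authors from uracil-enriched and input DNA. According to their methods and processing notes, reads were aligned to GRCh38 with BWA 0.7.17-r1194, handled with SAMtools 1.9-50 and Picard, and cleared of ambiguous and blacklisted positions. Coverage in smoothed 100 bp bins was compared with deepTools 3.2.1. The log2 values deposited by the authors are ratios of enriched over input coverage for each region, and the regions join bins above a threshold set per library. The methods name different sequencing platforms at different providers, but the platform per library is not given in the sources used here. Whether conditions, among them the MMR states, differ in platform could therefore not be tested. Similar total length within a condition means that a covered share is relative to the rest of the same genome, and not an amount of uracil.

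From 15 library files, the covered share of 20015 protein-coding windows (GENCODE release 44, 20 kb flanks) was computed with Python 3.11.15 and numpy 2.4.6. The other samples of the series are input and control libraries, for which no region file was used here. The 7 merged files entered 1 alternative. Means were compared by two-sided exact permutation tests over libraries (3003, 70 and 216 assignments), adjusted by Benjamini-Hochberg over all windows covered in at least 1 library, and called at 0.05. The smallest p was 0.000333, 0.0286 and 0.00926. R 4.3.3 with limma 3.58.1 gave an alternative. Scripts were tested on simulated data. Gene starts, and the distances from them, were taken from the GENCODE gene boundaries. Promoter bases came from RefSeq start sites (GRCh38.p14), in which 7 members matched, and these can differ from the GENCODE gene start. Replicates were separate biological replicates by the study's methods. Replicate numbers did not pair the libraries.

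The members and gene lists were chosen with earlier results of these data known. Beside the members, each list's called gene with the largest difference in each direction was named, and for each member the gene on another chromosome with the highest correlation. Some items are not reported here.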

Additional observations from a re-analysis of the deposited data

Results flagged for a closer look

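APC and TCF7L2 met a rule that flags genes with the libraries of the 2 drugs on opposite sides of the non-treated mean. In APC the mean with 5FdUR lay below and the mean with RTX above the non-treated mean, and the difference of 5FdUR minus RTX was -23.7 points. In TCF7L2 it was -15.7 points, with all 4 5FdUR libraries at 0% and a non-treated mean of 0.311%. That mean came from NT_UGI replicate 2 alone, at 1.86%. A share of 0% lies below any such mean, so TCF7L2 met the rule at the floor and is not read as a fall after 5FdUR. The direct comparison of the drugs gave p = 0.0286 for each gene (two-sided exact permutation test, n = 4 each), the smallest that it can give, and an adjusted p of 0.0719.

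Single libraries stood far from the rest of their group in 3 of 30 groups examined. A lone library with cover beside others at 0% always met the rule used, and the groups overlap. No rate by chance can therefore be set beside this count. RTX_UGI_MMR replicate 1 had 3.13% of CTNNB1 covered and the other 3 RTX libraries 0%. The same library had 6.04% of TGFBR2 covered, and the next RTX library 0.157%. NT_UGI replicate 2 had 1.86% of TCF7L2 covered and the other 5 non-treated libraries 0%.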

How the results depend on the processing

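With drug-treated set against non-treated cells, MYC stayed higher in 30 of 30 alternatives and was called in 28. FBXW7 was lower in 28 and called lower in 27. The call was lost in the merged files of each condition (4 against 3), where 0 windows were called higher, 0 lower, and 0 members in either direction, with MYC at 71.6 and FBXW7 at -20.4 points and an adjusted p of 0.174 for both (exact permutation tests). The 35 assignments allow no p under 0.0286, and no window passed after adjustment, so this loss says nothing about these genes. MYC also lost it with a common log2 minimum of 0.34 for all libraries. With the gene body only, 6728 windows were called higher and 3 members lower, and APC (-1.5 points) and PIK3CA (-2.01) turned. With flanks of 100 kb 5 members were called higher and 0 lower, and CTNNB1 (5.42), SMAD4 (5.61) and FBXW7 (13.4) turned. With flanks alone, added after seeing the data, these counts were 5 and 0, and the same genes turned (9.09, 9.4 and 44.4). Regions of at least 5 kb gave 5866 windows higher and 1223 lower, with CTNNB1 at 0.754. The highest 300 Mb per library gave 1850 windows higher and 3 members lower, with APC at -8.95 and PIK3CA at -5.98. The common log2 value of 0.34 gave 1167 windows and 0 members higher, with APC at -1.41, PIK3CA at -4.47 and TGFBR2 at -1.71. Dividing by the genome share gave 2 members lower, with APC at -0.187 and PIK3CA at -0.0856 times the genome share, and weighting by log2 value also gave 2 members lower. 5FdUR alone gave 2 members higher, with APC at -7.19, CTNNB1 at 2.92 and TCF7L2 at -0.311. RTX alone gave 2940 windows lower, 3 members higher and 2 lower, with TGFBR2 at -2.71. UGI-expressing controls alone gave 4436 windows higher, and MMR deficient libraries alone 2 members lower, with APC at -4.96. Without single libraries 7305 to 11235 windows were higher and 1808 to 2222 lower, always with 1 member each. The cause of these changes was not tested.

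Between 5FdUR and RTX, limma called 10208 windows and gave 11918 an unadjusted p at most 0.05, where the exact permutation test gave 7827, and 4907 with 300 Mb per library. No member had all 5FdUR above all RTX libraries (0 in place of 1) with flanks of 100 kb, regions of at least 5 kb or the common log2 value, and 0 in place of 2 had the reverse with 300 Mb per library. PIK3CA and FBXW7, which differed little, changed sign. PIK3CA was at -10.4 points in the gene body, -1.02 with long regions, -4.32 with the common log2 value and -0.0122 when weighted by log2 value. FBXW7 was at 12.4 with flanks of 100 kb, 3.01 with long regions, 5.43 with 300 Mb, 0.0181 relative to the genome share and 0.00778 radians with limma. TGFBR2 was at -0.118 with the common log2 value. Without single libraries the windows at unadjusted p at most 0.05 ranged from 4944 to 9938, the members with 5FdUR above from 1 to 2, and those with RTX above from 2 to 3. PIK3CA then ranged from -2.25 to 10.6 points, with -0.136 without 5FdUR_UGI_MMR replicate 2 and -1.9 without RTX_UGI replicate 1. FBXW7 ranged from -2.63 to 4.36, with 0.358 and 1.57 without 5FdUR_UGI replicate 2 and 5FdUR_UGI_MMR replicate 1.

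Between MMR states 0 windows were called in all 21 alternatives. The windows and members at unadjusted p at most 0.05 were 879 and 2 in the gene body, 3076 and 2 with flanks of 100 kb, 207 and 0 with long regions, 406 and 0 with 300 Mb, 236 and 0 with the common log2 value, and 6218 and 4 with limma. SMAD4 was at -2.21 with flanks of 100 kb, TCF7L2 at 0.434 with 300 Mb and TGFBR2 at -0.371 with the common log2 value. Without single libraries these counts ran from 357 to 5200 windows (lowest without either RTX_UGI replicate, highest without NT_UGI replicate 1) and from 0 to 3 members (0 without NT_UGI_MMR replicate 1 or either RTX_UGI replicate), and SMAD4 from -1.27 to 1.4, with -0.687 without 5FdUR_UGI replicate 2. The change of flank minus gene body share was called in 2 to 5 members without single libraries, the lowest without WT replicate 1.

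With the replicate block, 9034 windows were higher and 1881 lower with drug, and 1 member each. Between the drugs the replicate block called 0 windows and left 0 at an unadjusted p at most 0.05, since it allows none so small. Between MMR states it left 478 windows and 0 members. Same-numbered libraries did not deviate together: over 21 pairs of conditions r was -0.31 to 0.20, and 2 pairs were over 0.1. The block changed no other call.

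Thresholds per library, 2 replicates per condition and unrecorded read depth limit these values. A share of 0% means no region above the threshold, not that uracil was absent.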
